A study of Mus musculus with 7 samples.

Results

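A set of 10 genes that mark the fiber type or the developmental stage of striated muscle was followed in 7 mouse tumor transcriptomes. They were the adult fast myosin heavy chains Myh1, Myh2 and Myh4, the embryonic and neonatal (perinatal) heavy chains Myh3 and Myh8, the slow heavy chain Myh7, the slow troponins Tnni1, Tnnt1 and Tnnc1, and the slow regulatory light chain Myl2. The genes were selected on measured values of the same comparison that is described here, so their differences between the groups are given as a description, and the calls counted for them are no independent test. All 10 were found by name among the 38026 genes of the deposited table.

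Bulk RNA-seq was done on subcutaneous tumors that grew in C57BL/6 mice for 2 weeks after inoculation of cells of the line 1242 KPC, derived from a pancreatic ductal adenocarcinoma (PDA) of a genetically engineered mouse. All tumors received no treatment, and all cancer cells carried Cas9. The 4 sgScramble libraries (1 to 4) came from tumors of cells with a scrambled guide RNA, and the 3 sgKRT19 libraries (5, 6 and 8) from cells whose guide RNA targeted Krt19, which encodes an epithelial keratin. The labels do not say which guide was used, nor whether the injected cells were a single clone or a mixed population. The mice were purchased at 6 weeks of age and housed for 2 weeks before use. The comparison asks how editing of Krt19 in the cancer cells changes expression in the whole tumor, host cells included.

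Myosin heavy chain is the motor protein of the thick filament, and each fiber of a skeletal muscle is classed by the heavy chain isoform that it makes. Adult limb and trunk muscle of the mouse holds mainly fast fibers, embryonic and neonatal isoforms come first in development and return in regenerating fibers, and the slow set of troponins and light chains is shared in part with the heart. Pancreatic epithelium does not form sarcomeres.

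Values are normalized read counts, that is, reads scaled by a size factor for each library, and ± gives the SD within a group. Depth was 40781199 to 44972100 reads per library, and a count of 3 reads, below which a gene was treated as undetected, was worth 2.74 to 3.47. The edited gene had 23053 ± 4392 normalized reads of Krt19 in sgScramble tumors (n = 4) and 2012 ± 434 in sgKRT19 tumors (n = 3), a log2 difference of −3.52. One library stood apart from its group, since sgScramble 3 held reads of fast and developmental myosins that were near 0 in sgScramble 1, 2 and 4, and results are therefore given with and without it. In bulk tumors, fewer or more muscle cells and less or more RNA per muscle cell cannot be told apart.

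Of the 6 heavy chain genes, 5 lie in one head-to-tail cluster on the plus strand of chromosome 11 (GRCm38), in the order Myh3 (chr11:67078300-67102291), Myh2 (chr11:67171027-67197517), Myh1 (chr11:67200052-67224575), Myh4 (chr11:67238029-67260446) and Myh8 (chr11:67277124-67308634), followed by Myh13 (chr11:67321658-67371586), which is no member. The stretch from the start of Myh3 to the end of Myh8 is 230 kb. The slow genes are scattered, with Myh7 on chr14:54970684-54994626 (minus strand), Tnnc1 on chr14:31208312-31211729, Tnni1 on chr1:135779434-135810989, Tnnt1 on chr7:4504570-4516382 (minus strand) and Myl2 on chr5:122100951-122113472. All 10 are protein-coding, and the table lists them as ENSMUSG00000056328.14 (Myh1), ENSMUSG00000033196.17 (Myh2), ENSMUSG00000057003.12 (Myh4), ENSMUSG00000020908.14 (Myh3), ENSMUSG00000055775.16 (Myh8), ENSMUSG00000053093.16 (Myh7), ENSMUSG00000026418.16 (Tnni1), ENSMUSG00000064179.13 (Tnnt1), ENSMUSG00000091898.8 (Tnnc1) and ENSMUSG00000013936.12 (Myl2).

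How far reads can separate the isoforms is seen in their coding sequences. Myh1 shares 91.1% of aligned coding bases with Myh2, 90.3% with Myh4 and 89.3% with Myh8, but 80.7% with Myh3 and 77.4% with Myh7. The reads were 76 bases long, and the stretch of that length printed here was chosen as the one whose differences from Myh1 lay closest to the median over 2983 windows. Capitals mark bases that differ from Myh1.
Myh1 (chr11:67202186-67202261): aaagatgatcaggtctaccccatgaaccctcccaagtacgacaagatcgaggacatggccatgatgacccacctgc
Myh2 (chr11:67173437-67173512): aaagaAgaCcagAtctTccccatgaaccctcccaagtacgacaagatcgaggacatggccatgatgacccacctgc
Myh4 (chr11:67240932-67241007): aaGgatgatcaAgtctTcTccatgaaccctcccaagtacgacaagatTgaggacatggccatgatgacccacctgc
Myh8 (chr11:67279902-67279977): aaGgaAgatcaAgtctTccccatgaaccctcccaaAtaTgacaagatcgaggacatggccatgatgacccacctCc
Myh3 (chr11:67082294-67082369): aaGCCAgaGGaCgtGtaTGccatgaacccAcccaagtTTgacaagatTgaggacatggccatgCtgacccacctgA
Myh7 (chr14:54992296-54992371, minus strand): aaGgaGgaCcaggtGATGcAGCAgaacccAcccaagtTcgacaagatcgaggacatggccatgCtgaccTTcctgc
In this stretch Myh2 differed from Myh1 at 4 bases, Myh4 at 5, Myh8 at 7, and Myh3 and Myh7 at 16 each. Over whole transcripts, 16.3% of the 76-base windows of Myh1 were identical in another gene, as were 16.0% for Myh2, 12.6% for Myh8, 9.38% for Myh4 and 1.80% for Myh3. The 15.1% of windows that Myh7 shared were all shared with the cardiac gene Myh6, and the 3 troponins and Myl2 shared none. Values of the 6 heavy chains are uncertain, because how such reads were counted is not given in the sources used here. The percentages do not bound the error, which also depends on the level of the gene that shares the windows. Low values such as those of Myh3 and Myh8, and their shares below, could be off by more if reads of Myh1 were counted for them.

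On the log2(value + 1) scale the adult fast heavy chains had the largest differences of the members. Myh1, the 2X chain of fast fibers, had 0.929, 0.988, 222 and 1.85 normalized reads in sgScramble 1 to 4 and 3851, 3631 and 3076 in sgKRT19 5, 6 and 8 (mean 3519 ± 399, SD, n = 3). The log2 difference of Myh1 was 8.96 (SE 1.39). Each sgKRT19 library lay above each sgScramble library, and sgScramble 3 lay between the sgKRT19 tumors and the other sgScramble tumors. Myh2, the 2A chain of fast oxidative fibers, had 2.79, 0.988, 60.3 and 0 normalized reads in sgScramble tumors and 1203, 1402 and 891 in the sgKRT19 libraries (mean 1165 ± 258, SD, n = 3), with a log2 difference of 7.95 (SE 1.10). Myh4, the 2B chain of the fastest fibers, had 0.929, 0, 199 and 0 normalized reads in sgScramble tumors and 951, 754 and 3249 in the sgKRT19 libraries (mean 1652 ± 1387, SD, n = 3), with a log2 difference of 8.23 (SE 1.59). Myh4 thus varied 4.31-fold among the sgKRT19 tumors, where Myh1 varied 1.25-fold and Myh2 1.57-fold, and it was highest in sgKRT19 8, the library with the lowest Myh1 and Myh2.

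The developmental heavy chains had the same arrangement of libraries at lower levels. Myh3, the embryonic chain, had 0, 0, 7.31 and 0 normalized reads in sgScramble tumors and 161, 132 and 58.8 in the sgKRT19 libraries (mean 117 ± 52.5, SD, n = 3), with a log2 difference of 6.00 (SE 0.748). Against sgScramble 1, 2 and 4, which had no read of Myh3, the sgKRT19 mean was at least 39.5-fold higher, taking 3 reads in a library as the floor. Myh8, the neonatal chain, had 0.929, 0, 45.7 and 0.927 normalized reads in sgScramble tumors and 527, 395 and 362 in the sgKRT19 libraries (mean 428 ± 87.3, SD, n = 3), with a log2 difference of 6.87 (SE 1.06). Both were highest in sgKRT19 5 and lowest in sgKRT19 8, the library in which Myh4 was highest. The groups did not overlap for either gene.

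The slow members behaved in 2 ways. Myh7, the slow and cardiac beta heavy chain, had 0, 0, 0 and 1 reads in sgScramble 1 to 4 and 4, 8 and 4 reads in sgKRT19 5, 6 and 8. Myl2, the regulatory light chain of slow and ventricular muscle, had 2, 0, 0 and 1 reads against 4, 7 and 5. Both were higher in every sgKRT19 library but too low to enter the fit, and sgScramble 3 had no read of either. The 3 slow troponins were instead well above the floor in every tumor, sgScramble 1, 2 and 4 included.

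Tnni1, slow troponin I, the inhibitory subunit of the thin filament, had 51.1, 50.4, 61.2 and 36.2 normalized reads in the sgScramble libraries (mean 49.7 ± 10.3, SD, n = 4), and 486, 238 and 103 in the sgKRT19 libraries (mean 275 ± 194, SD, n = 3), with a log2 difference of 2.20 (SE 0.430). Tnnt1, slow troponin T, which anchors the complex to tropomyosin, had 124, 108, 120 and 67.7 normalized reads against 688, 419 and 313, with means of 105 ± 25.8 (n = 4) and 473 ± 193 (n = 3) and a log2 difference of 2.12 (SE 0.288). Groups did not overlap for these 2 genes. Tnnc1, the calcium-binding troponin C of slow and cardiac muscle, had 178, 189, 132 and 109 normalized reads in the sgScramble libraries (mean 152 ± 37.6, SD, n = 4), and 373, 222 and 186 in the sgKRT19 libraries (mean 260 ± 99.5, SD, n = 3). Its groups overlapped, since sgKRT19 8 lay below sgScramble 2, and the log2 difference was 0.74 (SE 0.270). All 3 were highest in sgKRT19 5 and lowest in sgKRT19 8.

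**Figure D1:**
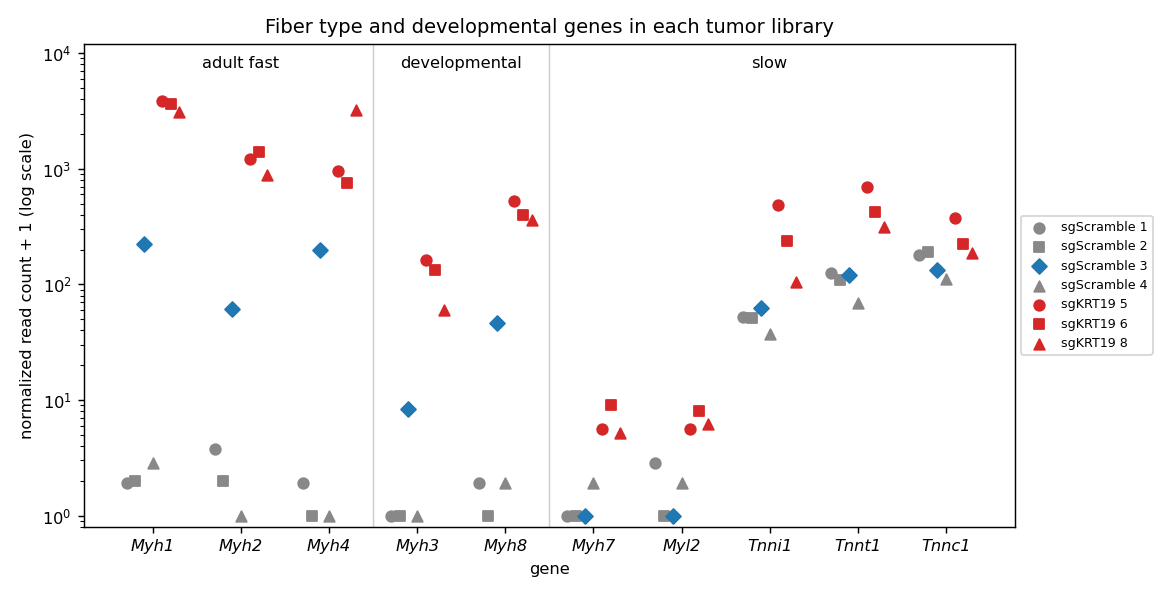
Normalized read count plus 1 (log scale) of each of the 10 genes in each library, with 1 point per tumor. The 3 sgKRT19 tumors (red) lie above the sgScramble tumors for 9 genes, sgScramble 3 (blue) lies between them for the fast and developmental heavy chains, and Tnnc1 overlaps.

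Of the 10 members, 8 had at least 10 normalized reads in at least 3 libraries and were fitted together with all other genes. limma (log2(value + 1), Benjamini-Hochberg adjusted p under 0.05) called 7 of these 8 higher in sgKRT19 tumors, all but Tnnc1, where 17.9% of the 21322 genes tested were called higher. The same comparison chose the members, so nothing is read from that count. Myh3 also entered the fit only through the sgKRT19 libraries, where it was high, as its highest sgScramble value was 7.31. The lowest sgKRT19 library exceeded the highest sgScramble library for the same 7 of the 8 fitted members, and for 21.7% of all genes tested. It also did so for Myh7 and Myl2, which were not fitted and had few reads. The median log2 difference was 6.43 over the 8 members and 0.01 over all genes tested. Without sgScramble 3 the log2 difference was 10.62 for Myh1, 9.19 for Myh2, 10.06 for Myh4 and 8.10 for Myh8. With edgeR on recovered reads from all libraries it was 5.92 for Myh1, 6.13 for Myh2, 5.01 for Myh4, 5.11 for Myh8 and 5.86 for Myh3, so the fast chains were then not all above the developmental ones.

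To compare isoforms with each other, values were divided by the length of the merged exons, giving a level per kb. In sgKRT19 tumors (n = 3) the level per kb was 554 ± 62.8 for Myh1, 275 ± 231 for Myh4, 250.2 ± 95.6 for Tnnc1, 215 ± 87.7 for Tnnt1, 163 ± 36.1 for Myh2 and 76.5 ± 53.9 for Tnni1. It was 36.4 ± 7.41 for Myh8, 19.3 ± 8.67 for Myh3, 2.88 ± 0.632 for Myl2 and 0.651 ± 0.242 for Myh7. Neighbors from Myh4 to Myh2 in this order did not differ beyond their spread. The order depends on the length used, and per kb of the longest coding transcript, an alternative chosen after seeing the data, Tnnt1 (447 ± 182) lay above Tnnc1 (361 ± 138), and Tnni1 (239.6 ± 169) above Myh2 (192 ± 42.4). In sgScramble tumors (n = 4) the order began with Tnnc1 (146 ± 36.1), Tnnt1 (47.6 ± 11.7) and Tnni1 (13.8 ± 2.86), and Myh1 (8.88 ± 17.4) and Myh4 (8.31 ± 16.5) came from sgScramble 3 almost alone.

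Per kb, the 6 heavy chains made up a signal that was 92.8%, 94.1% and 96.6% adult fast in sgKRT19 5, 6 and 8 (mean 94.5% ± 1.89, SD, n = 3). The developmental chains Myh3 and Myh8 held 7.10%, 5.83% and 3.40%, and the slow chain Myh7 held 0.0534%, 0.0978% and 0.0410%. In sgScramble 3 the fast share was 93.8% and the developmental share 6.24%, both inside the range of the sgKRT19 tumors, and Myh7 had 0 of 585 heavy chain reads, which allows a share of reads of up to 0.513%. The other sgScramble libraries had 6, 2 and 4 heavy chain reads in all, too few for a share.

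Within the fast share the tumors differed. Myh1 held 60.3% and 60.2% of the level per kb in sgKRT19 5 and 6 but 40.7% in sgKRT19 8, and 42.8% in sgScramble 3. Myh4 went the other way, with 15.7% and 13.2% in sgKRT19 5 and 6, 45.4% in sgKRT19 8 and 40.6% in sgScramble 3. As a share of heavy chain reads, Myh4 was 14.2% (95% Wilson interval 13.3% to 15.1%), 11.9% (11.2% to 12.8%), 42.5% (41.4% to 43.7%) and 37.3% (33.4% to 41.3%) in these 4 libraries, and the intervals cover counting error only. The counts behind them were 5794, 6321, 7276 and 585 heavy chain reads. The interval of sgScramble 3 lay far from those of sgKRT19 5 and 6 and next to that of sgKRT19 8. The ratio of Myh4 to Myh1 per kb was 0.261 and 0.219 in sgKRT19 5 and 6, 1.12 in sgKRT19 8 and 0.947 in sgScramble 3. The mean Myh4 share of 24.8% ± 17.9 (SD, n = 3) rested on sgKRT19 8, without which it was 14.5%.

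Ratios of the remaining chains did not all pair the libraries in this way. Myh2 per kb was 0.278 and 0.344 of Myh1 in sgKRT19 5 and 6, 0.258 in sgKRT19 8 and 0.242 in sgScramble 3. The embryonic to neonatal ratio, Myh3 to Myh8 per kb, was 0.592 and 0.649 in sgKRT19 5 and 6, 0.315 in sgKRT19 8 and 0.311 in sgScramble 3. That last value rests on 8 reads of Myh3. Per kb of the longest coding transcript, which is far shorter than the merged exons of Myh8, the same ratio was 0.311, 0.341, 0.165 and 0.163. Myh8 to Myh1 per kb of merged exons was instead highest in sgScramble 3, at 0.111, against 0.0739, 0.0587 and 0.0636 in sgKRT19 5, 6 and 8. These comparisons rest on 4 libraries and were not tested.

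**Figure D2:**
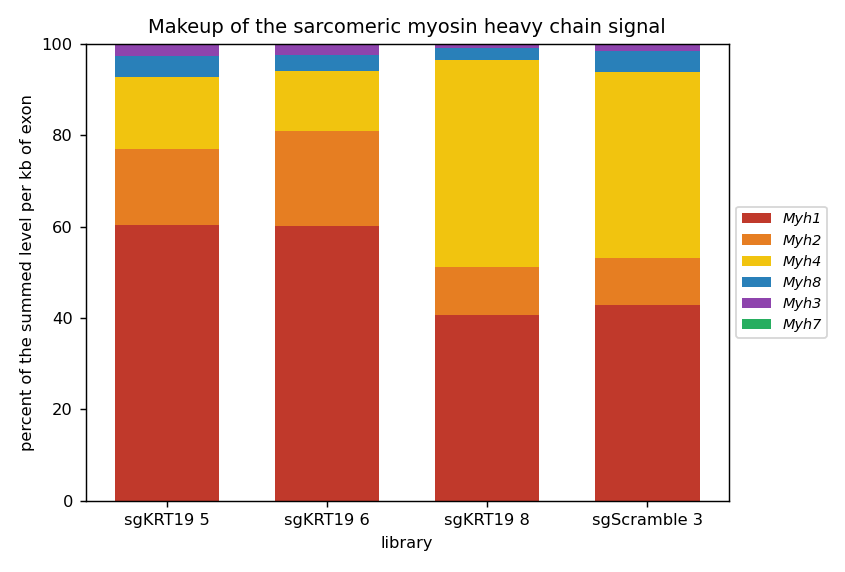
Stacked bars give the percent of the summed level per kb of exon held by each of the 6 heavy chains in the 4 libraries with enough reads. Myh4 holds 45.4% in sgKRT19 8 and 40.6% in sgScramble 3, and 15.7% and 13.2% in sgKRT19 5 and 6, while Myh7 is too small to be seen.

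Each slow member was then set against the fast isoform of the same protein, per kb. Fast troponin I, Tnni2, was above Tnni1 in every library, and the log2 ratio was 3.33, 3.61, 4.25 and 3.63 in sgScramble 1 to 4 and 3.74, 4.17 and 6.05 in sgKRT19 5, 6 and 8 (mean 4.65 ± 1.23, SD, n = 3). For this protein the ratios of the groups overlapped. Troponin T differed, since slow Tnnt1 exceeded fast Tnnt3 in sgScramble 1, 2 and 4, with log2 ratios of Tnnt3 to Tnnt1 of −4.59, −3.48 and −2.39, and Tnnt3 exceeded Tnnt1 in the rest, with 1.77 in sgScramble 3 and 2.88, 2.87 and 3.75 in sgKRT19 5, 6 and 8 (mean 3.17 ± 0.504, SD, n = 3).

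Troponin C had the same arrangement. The log2 ratio of fast Tnnc2 to Tnnc1 was −4.40, −4.61 and −4.18 in sgScramble 1, 2 and 4, 0.64 in sgScramble 3 and 3.09, 2.95 and 3.56 in the sgKRT19 libraries (mean 3.20 ± 0.320, SD, n = 3). In sgScramble 1, 2 and 4 there were 4, 7 and 10 reads of Tnnt3 and 7, 6 and 5 reads of Tnnc2. For the regulatory light chains, fast Mylpf exceeded Myl2 by log2 ratios of 9.88, 8.61 and 9.18 in the sgKRT19 libraries (mean 9.22 ± 0.637, SD, n = 3). With Myl2 held at the floor of 3 reads, the ratio was 4.46, 3.68, 6.91 and 4.54 in sgScramble 1 to 4. The slow essential light chain Myl3 had 3 reads or fewer in every library, against 1660.1, 1144 and 1522 normalized reads of fast Myl1 in sgKRT19 tumors.

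**Figure D3:**
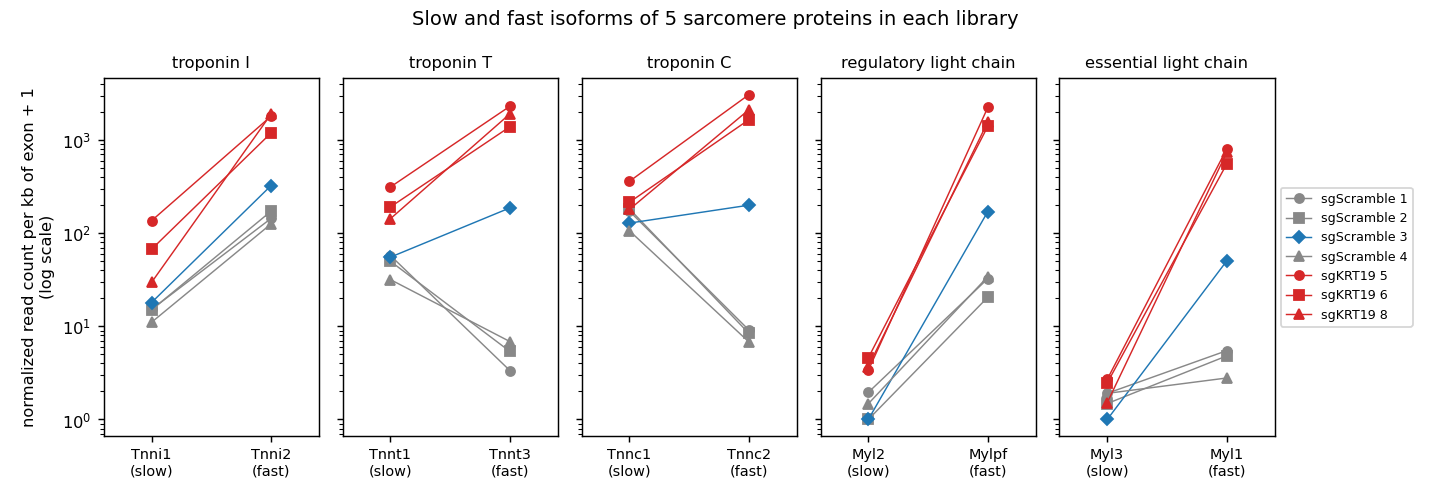
Each panel joins the slow and the fast isoform of 1 sarcomere protein in each library, as normalized read count per kb of exon plus 1 (log scale). For troponin T and C the lines fall in sgScramble 1, 2 and 4 and rise in sgScramble 3 and the sgKRT19 tumors, and for troponin I they rise in all 7.

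The share of the sgKRT19 level reached by sgScramble 3 differed between the members with and without a base level in the other controls. As a percent of the sgKRT19 mean it was 6.31% for Myh1, 5.17% for Myh2, 12.1% for Myh4, 6.24% for Myh3 and 10.7% for Myh8. It was 22.2% for Tnni1, 25.3% for Tnnt1 and 50.8% for Tnnc1. When the mean of sgScramble 1, 2 and 4 was first subtracted from both, the share was 6.67% for Tnni1 and 5.27% for Tnnt1, within the range of 5.07% to 12.0% of the 5 heavy chains. Tnnc1 gave −26.0%, because sgScramble 3 lay below the mean of the other controls. Over the 10 fast fiber partners the same share ran from 6.64% to 16.2%, with a median of 9.56%.

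Other genes of the fiber program were taken from lists and are described by counts, beside the 17.9% of all genes called higher. Among the called genes of all lists, Myoz2, Ankrd2, Actc1, Myoz1, Nkx2-5 and Myh13 reached a value of 10 only in the sgKRT19 libraries. They thus entered the fit through the group where they were high, and their calls are no test. The 10 fast fiber partners were fast isoforms of troponin, light chains and calcium-handling proteins, with the actinin Actn3 and the myosin binding protein Mybpc2. All 10 were called higher by limma (median log2 difference 5.70, and 6.73 without sgScramble 3, again with 10 called). Tnnt3 had the largest difference of this list at 7.30 (SE 1.14), followed by Tnnc2 at 6.90 (SE 0.978). Atp2a1, the calcium pump of fast fibers, had 25.1, 46.4, 306 and 28.8 normalized reads in sgScramble tumors and 2853, 2078 and 2939 in sgKRT19 tumors. Pvalb, the calcium buffer parvalbumin of the fastest fibers, had 0.929, 0.988, 16.4 and 0 against 254, 115 and 282.

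Of 10 slow fiber partners, 9 were tested, 5 were called higher by limma, with a median log2 difference of 3.17 (3.52 without sgScramble 3, again with 5 called). The 5 were Mybpc1, slow myosin binding protein C, at 8.35 (SE 1.39), the Z-disc proteins Csrp3 at 7.53 (SE 1.03) and Myoz2 at 5.94 (SE 0.579), the stretch-responsive Ankrd2 at 4.85 (SE 0.326), and the calcium store protein Casq2 at 3.17 (SE 0.517). Transcripts of Mybpc1 and Csrp3 are not restricted to slow fibers. Of the others, Myh7b had a log2 difference of 0.32, Tpm3 of 0.11, Atp2a2 of −0.20 and Myl6b of −0.37, and none passed the test. Tpm3, Atp2a2 and Myl6b are also made outside muscle, and Tpm3 turned to −0.11 with library size as the only scaling, while Myl6b was then called lower (−0.58).

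Of 8 developmental partners, 6 were tested, with 4 called higher and 1 lower by limma (median log2 difference 2.79, and 3.22 without sgScramble 3 with the same counts). Myog, a transcription factor of differentiating muscle cells, had 0, 0, 18.3 and 0 normalized reads in sgScramble tumors and 138, 55.0 and 39.9 in sgKRT19 tumors, a log2 difference of 5.03 (SE 0.987). Chrng, the fetal subunit of the acetylcholine receptor, had 0, 0, 10.96 and 0.927 against 83.2, 19.0 and 11.6, and its log2 difference of 3.66 (SE 0.920) was no longer called without sgKRT19 5 (2.85). Actc1 (3.74) and Myl4 (1.92), actin and light chain isoforms of the embryo and the heart, were also called higher. Ncam1, which is made by regenerating fibers and by many other cells, was called lower (−1.57), and Tnnt2 was not called (0.20). The fusion factors Mymk, at 50.9, 22 and 6.30, and Mymx, at 8.09, 8 and 5.25 normalized reads in sgKRT19 5, 6 and 8, did not pass the filter and were at or below 2.74 in sgScramble tumors. All 8 of these partners, Ncam1 included, were highest in sgKRT19 5 and lowest in sgKRT19 8. So were Myh3, Myh8, the slow troponins and the adult fast chain Myh1. For Mymx (7, 8 and 5 reads) and Myh1 (3331, 3630 and 2929 reads) the highest place of sgKRT19 5 rests on the scaling. The 10 fast partners mostly had another order, with 6 highest in sgKRT19 5 and 4 in sgKRT19 8. Of the 10, 9 were lowest in sgKRT19 6 and 1, Casq1, in sgKRT19 8, so that Casq1 had the order of the developmental partners.

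Genes of skeletal muscle in general moved with the members. Of 10 such genes, 10 were called higher by limma (median log2 difference 5.02, and 5.49 without sgScramble 3, again with 10 called), among them the actin Acta1 at 7.32 (SE 1.10), the creatine kinase Ckm at 8.09 (SE 1.35) and titin, Ttn, at 4.78 (SE 0.501). Their summed level was 17201 to 23706 in sgKRT19 tumors, 2360 in sgScramble 3 and 212 to 267 in sgScramble 1, 2 and 4. None of the 10 was at 0 in more than 1 library. The part of skeletal muscle tissue in the differences of the members was not tested.

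Markers of other tissues that share members or lie next to a subcutaneous tumor were set beside them. Of 6 heart genes, Myh6, Nppa, Nppb and Myl7 stayed at or below 6.30 normalized reads in every tumor, Nkx2-5 was called higher (3.92, SE 0.442) and Tnni3 was not called (−0.56, and called lower at −0.78 with library size scaling). The summed heart level was 136 to 184 in sgKRT19 and 123 to 197 in sgScramble tumors. Of 6 smooth muscle genes, Acta2 was called higher (0.65, lost without sgKRT19 5) and Smtn lower (−0.74), and 4 were not called. Of 5 skin keratinocyte genes in the table, Krt5 and Krt1 were not tested, Krt14 (−0.01) and Krt10 (0.02) were not called, and Lor was called lower (−1.51), a call that was lost without any 1 of sgScramble 1, sgScramble 3, sgKRT19 6 or sgKRT19 8. Of 6 adipocyte genes 5 were tested, of which Lipe was called higher (0.997) and 4 were not called. The summed level was 8308 to 14353 in sgKRT19 and 6786 to 9575 in sgScramble tumors for smooth muscle, 172 to 265 and 173 to 252 for skin, and 2701 to 3987 and 1256 to 2975 for fat. Their part in the differences of the members was not tested.

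**Figure D4:**
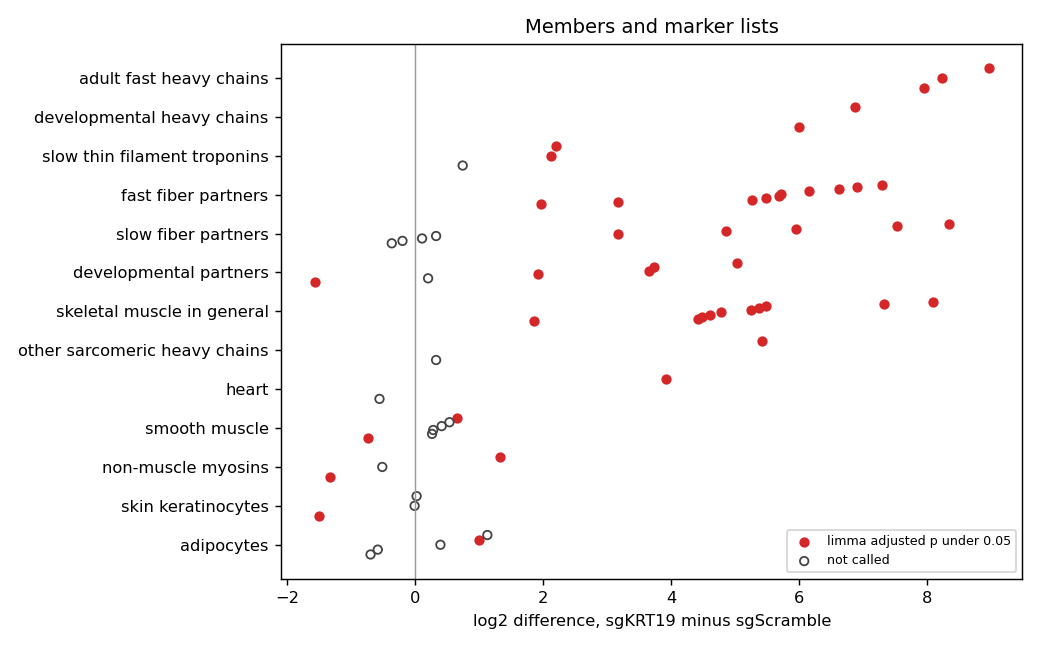
Log2 difference, sgKRT19 minus sgScramble, of each tested gene, with 1 row per group of genes (filled, limma adjusted p under 0.05). Fast partners and general muscle genes are all filled and positive, slow partners fall into 5 that were called and 4 between −0.37 and 0.32, and smooth muscle, skin and fat genes lie between −1.51 and 1.13.

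Since the heavy chains of the cluster moved together, the 120 bases before their RefSeq start sites (GRCm38.p6, plus strand) are shown for the 3 fast and the 2 developmental genes. Capitals mark TATAAA or its reverse TTTATA and the E-box CANNTG, the letters bound by myogenic helix-loop-helix factors.
Myh1 (chr11:67199982-67200101): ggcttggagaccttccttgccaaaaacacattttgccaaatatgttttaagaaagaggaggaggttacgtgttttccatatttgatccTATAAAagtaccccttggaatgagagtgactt
Myh2 (chr11:67170907-67171026): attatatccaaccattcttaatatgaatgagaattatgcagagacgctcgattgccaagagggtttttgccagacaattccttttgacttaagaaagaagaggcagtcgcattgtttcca
Myh4 (chr11:67237692-67237811): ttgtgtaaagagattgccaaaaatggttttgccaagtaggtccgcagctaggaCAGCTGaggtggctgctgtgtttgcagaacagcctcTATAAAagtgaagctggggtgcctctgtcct
Myh3 (chr11:67078180-67078299): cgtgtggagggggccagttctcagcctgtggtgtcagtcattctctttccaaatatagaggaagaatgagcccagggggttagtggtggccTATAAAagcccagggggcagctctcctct
Myh8 (chr11:67277004-67277123): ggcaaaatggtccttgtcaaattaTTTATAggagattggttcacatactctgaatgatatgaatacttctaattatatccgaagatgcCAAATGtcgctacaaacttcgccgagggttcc
TATAAA began 32 bases before the start in Myh1, 31 in Myh4 and 29 in Myh3. Myh8 held it only on the reverse strand, 96 bases before the start, and Myh2 did not hold these letters. Among the slow members Tnnt1 held it at 30 bases. Of all 32844 mouse promoter windows of this length, 6.34% held TATAAA on either strand and 40.2% held CANNTG. The E-box was found in Myh4 (CAGCTG, 67 bases before the start), Myh8, Tnni1, Myl2 and Myh7, and the MEF2 motif, held by 1.42% of all windows, in no member. The RefSeq start of Myh4 (67237812) lies upstream of the GENCODE start (67238029). So do those of Myl2 (122092724 and 122093189), whose GENCODE start is 122100951. Tnni1 has RefSeq starts 135799421 and 135799511, inside the gene, and only the window of the former held an E-box. The motif matches describe letters and are not evidence of binding.

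Among tested genes, the calls ended at the edges of the cluster. Its tested neighbors within 150 kb, chosen by position after their values were seen, were Sco1 (log2 difference −0.02), Adprm (−0.15) and Tmem220 (−0.13) before Myh3, and Gas7 (0.04) after Myh13, and none was called. Inside it, Myh13, the heavy chain of extraocular and laryngeal muscle, had 0.929, 0, 4.57 and 0 normalized reads in sgScramble tumors and 98.3, 81.0 and 55.7 in sgKRT19 tumors (log2 difference 5.42, SE 0.594, called). The antisense transcript Myhas, which overlaps 8.11% of the exon bases of Myh1, had 1.86, 0, 41.1 and 0 normalized reads against 795, 581 and 524 (7.56, SE 1.08, called). 9430073C21Rik, which is antisense to 3.32% of Myh2, was also called higher (6.42, SE 0.769). The library kit keeps strand, but whether the counting used strand is not given in the sources used here, so antisense values and those of Myh1 and Myh2 are uncertain in the overlaps.

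The genes whose pattern over the 7 libraries was most like a member were ranked by the root mean square difference of centred log2 values. For Myh4 they were Mybpc1 (0.83), Ckm (0.86) and Myh1 (0.91), and for Myh3 Adprhl1 (0.41), 9430073C21Rik (0.43) and Myoz2 (0.46). For Myh7, with 17 reads in all, they were Cd96 (0.26), Cxcr3 (0.29) and Cyp2c66 (0.31). The likeness of 7 points that fall into separate groups is a description only.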

How the data were processed

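The authors deposited 1 table with 1 column per library whose values are a signal, reads per gene divided by a size factor. Every value was a whole multiple of 1 read (100% within 0.1 reads), so reads were recovered. The labels name polyA RNA, while the study describes a stranded total RNA kit and 76-base single reads. The submitters' processing notes name mm10, and the aligner and counter are not given in the sources used here. Of the gene identifiers, 97.6% matched GENCODE M21 (GRCm38), which gave positions and exons.

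log2(value + 1) of genes that reached a value of 10 in 3 or more of the 7 libraries was fitted with limma 3.58.1 (lmFit, eBayes with trend, R 4.3.3), with Benjamini-Hochberg adjustment over all genes tested and a threshold of 0.05. The pseudocount understates changes of low genes. Alternatives were edgeR 4.0.16 on recovered reads, pseudocounts of 0.5 and 5, no filter, library size scaling, other lengths and leaving out each library. Coding sequences were aligned with MAFFT 7.526. The limma fit was also run on simulated data. These gave all genes the same dispersion and held no library like sgScramble 3, so that run is no check of the member values. Named genes are the members, listed genes, Krt19, overlapping genes and the 3 genes most like each of Myh4, Myh7 and Myh3.

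The members and lists were chosen with earlier results of these data known. The labels do not say that tumors came from separate mice, so p-values measure the spread between these libraries. Protein sequences were not used here.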

Additional observations from a re-analysis of the deposited data

Results flagged for a closer look

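Of 18 sets of sgScramble values searched for a library far from the other 3, 9 held one, and 8 of the 9 were sgScramble 3. Chance gives about 1 in 20, and the sets are not independent, since they come from the same libraries. The genes and the contrast with sgScramble 3 were also chosen with these values known, so the number of sets restates that choice and is no independent evidence. For single genes, sgScramble 3 had 222 normalized reads of Myh1 (next highest 1.85), 60.3 of Myh2 (2.79), 199 of Myh4 (0.929), 7.31 of Myh3 (0) and 45.7 of Myh8 (0.929). Its summed level was 1945 for the fast fiber partners (next highest 471), 2360 for skeletal muscle in general (267) and 72.2 for the other sarcomeric heavy chains (57.3). The slow troponins Tnni1, Tnnt1 and Tnnc1 did not set it apart, and Myh7 and Myl2 were too low to be searched. The summed heart level of sgScramble 1, at 123, was low beside the nearest library at 189. The values of sgScramble 3 lay far below those of the sgKRT19 tumors, where Myh1 was 3076 or more.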

How the results depend on the processing

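No paired analysis was possible because the groups share no replicate number. The values checked were the counts, the log2 differences of the members, the heavy chain shares and the isoform ratios. Under the alternatives 175 of these values counted as unchanged, 8 moved, 1 gained a call and none reversed. Unchanged meant the same direction and side of the threshold for a log2 difference, and a shift below the SD for a share or ratio. For the counts it allowed wide changes, such as 4861 genes called without sgScramble 2 beside 7240 with all libraries. Shares and ratios with 1 sgKRT19 library left out are among the 175, and could not fail that rule. Of 55 listed partners tested, 8 gained or lost a call in a fit that tested them. The called partners Myoz2, Ankrd2, Actc1, Myoz1, Nkx2-5 and Myh13 reached a value of 10 only in the sgKRT19 libraries. Without any 1 of these libraries they were not tested, and they are not counted among the 8. Chrng, Acta2 and Lor lost their calls. Myl6b gained one without sgKRT19 5 (−0.55) or with library size scaling, Tnni3 (−0.73) and Myh9 (−0.61) without sgScramble 1 or with that scaling, and Cidec (0.53) and Fabp4 (1.51) without sgScramble 1. The sign changed for 6, Tpm3, Tnnt2, Actg2, Krt14, Krt10 and Adipoq, none of them called. The mean share of Myh8 in the heavy chain signal was 6.29% with no division by length and 6.21% per kb of the longest coding transcript (3.53% per kb of merged exons). Mean log2 ratios moved to 3.38 for Tnni2 to Tnni1, 2.82 for Tnnc2 to Tnnc1 and 8.35 for Mylpf to Myl2 with no division by length, and to 2.66 for Tnnt3 to Tnnt1, 2.87 for Tnnc2 to Tnnc1 and 8.27 for Mylpf to Myl2 with the coding transcript. The merged exons of Myh8 (11.8 kb) are longer than its coding transcript (6149 bases), which sets its share.

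Leaving out 1 library gave 4861 to 7714 genes called (7240 with all), 6 or 7 members (7 with all) and 31 to 41 listed partners (38 with all). Without any 1 sgKRT19 library Myh3 no longer met the filter on low values, and without sgKRT19 8 Tnnc1 was called (0.95). Tnni1 ran from 1.66 without sgKRT19 5 to 2.77 without sgKRT19 8, and Myh3 from 4.18 with a pseudocount of 5 to 6.77 with 0.5. Scaling by total reads alone put the median of all genes at −0.21, with 27.5% of calls higher (52.8% with the deposited scaling), and 7 members were called. Without the filter 9 members were called. Leaving out single sgKRT19 libraries after the data were seen cannot move a mean of 3 shares or ratios by more than their SD. It is therefore no check of them, and the mean Myh4 share went from 24.8% to 14.5% without sgKRT19 8. For Myh7 and Myl2, depth limits any statement to a few reads per library.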

Other observations

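The other heavy chain genes gave a background for the members. Myh15 and Myh6 had at most 2.00 normalized reads in any library. The non-muscle myosins Myh9, Myh10 and Myh14, cytoplasmic motors made in many tissues, did not share one direction. Myh14 had 225, 204, 528 and 226 normalized reads in sgScramble tumors and 675, 857 and 556 in sgKRT19 tumors (log2 difference 1.33, SE 0.307, called higher by limma), and sgScramble 3 was again nearest to the sgKRT19 tumors. Myh10 was called lower (−1.34, SE 0.254), and Myh9 was not called (−0.52, SE 0.195), but was called lower with library size scaling (−0.73).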
